A study of Mus musculus with 21 samples.

Results

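Matrix metalloproteinases and their tissue inhibitors were followed in 21 RNA-sequencing libraries of macrophages sorted from mouse kidneys. The members are 6 enzymes (Mmp8, Mmp9, Mmp12, Mmp13, Mmp14 and Mmp19) and 3 inhibitors (Timp1, Timp2 and Timp3), 9 of the 34236 gene symbols in the count table. They were chosen from their levels across all 21 libraries, with earlier results of these data known and with no threshold recorded. The levels and calls below are therefore a description of the members and not independent evidence for them. Male C57BL/6J mice, given as 24 weeks old in the labels, had either renal artery stenosis (RAS), made with a cuff around the right renal artery, or a Sham operation in which the artery was freed without a cuff. F4/80+CD64+ cells were sorted after a gate that removed granulocytes, erythrocytes and lymphocytes. They were divided by CD11b and CD11c into CD11chiMϕ (3 Sham and 4 RAS libraries), CD11cloMϕ (3 Sham and 4 RAS) and kidney-resident macrophages (KRM, 4 Sham and 3 RAS). The labels do not say whether each library came from a separate animal, so p-values measure the spread between these samples, which may be technical.

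Matrix metalloproteinases are zinc-dependent enzymes that are made as inactive precursors and cut collagens, elastin and other proteins outside the cell. Tissue inhibitors of metalloproteinases (TIMPs) bind the active enzymes and block them. Macrophages are known for the elastase Mmp12, while Mmp8 and Mmp9 are also stored in the granules of neutrophils, and the balance of enzymes and inhibitors is studied in the kidney for its part in scarring.

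Library totals ran from 6891137 to 18592376 counts. Levels are CPM, the counts of a gene relative to the total of its library, after TMM scaling of the library sizes, and a count of 0 in a library allows a level of up to 3 counts there, a limit that covers counting error only. Several libraries stood apart. The count column of KRM RAS replicate 1 did not match its own column in the second deposited table (Spearman's rho of 0.688 over genes, against 0.908 or more in the other libraries). Of all columns of that table, the counts of the library labelled KRM RAS replicate 1 were most like that of KRM Sham replicate 4 (0.892). KRM Sham replicate 1 and KRM RAS replicate 2 were also most like another column, but one of their own group. Their values were 0.945 against 0.933 for the own column, and 0.913 against 0.909. The comparisons of members in KRM RAS are given with all libraries, and their calls also without it, and limma, which used the second table, read the other column of this label. The Sham libraries of replicate 3 held the most counts of 10 proximal tubule markers in each population, with 15090 summed CPM in CD11chiMϕ, 4763 in CD11cloMϕ and 2451 in KRM, where the other Sham libraries lay between 131.2 and 749.5. In KRM RAS replicates 2 and 3, 10 distal nephron markers summed to 4473 and 3345 CPM, against 103.5 in replicate 1 and 4.71 to 166.3 in KRM Sham. The 10 macrophage markers were at 2563 or more summed CPM in every library, and none of the list was at 0 in any group. In these bulk libraries fewer cells of a type and less RNA per cell cannot be told apart.

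Mmp12, Mmp13 and Mmp8 lie in the cluster of Mmp genes on mouse chromosome 9 (GRCm38). Mmp13 runs from 7272514 to 7283331, Mmp12 from 7344381 to 7369499 and Mmp8 from 7558456 to 7568485, all on the + strand. Between and after them lie Mmp1b, Mmp3, Mmp1a, Mmp10, Mmp27, Mmp20 and Mmp7. The other members lie apart, Mmp9 on chromosome 2 from 164940780 to 164955850, Mmp14 on chromosome 14 from 54431612 to 54445364, Mmp19 on chromosome 10 from 128790910 to 128800824 and Timp3 on the same chromosome from 86300372 to 86349506. Timp1 lies on chromosome X from 20870166 to 20874735, inside a gene on the opposite strand, Syn1, with which it shares no exonic base, and Timp2 on the - strand of chromosome 11 from 118301069 to 118355740. The promoters of Mmp12 and Mmp13 are shown because both neighbours were high in KRM, while in 3 of the 4 CD11chiMϕ libraries of RAS kidneys Mmp12 was high and Mmp13 low. RefSeq (GRCm38.p6) gave a promoter of 300 bases, 250 before and 50 after the start of transcription, for 7 of the 9 members, and Mmp12 has 2 entries. Capitals mark 3 motifs searched on both strands, the AP-1 site TGANTCA, the TATA box TATAAA and the PEA3 site AGGAAG.
Mmp12, first entry, chr9:7344147-7344446, + strand: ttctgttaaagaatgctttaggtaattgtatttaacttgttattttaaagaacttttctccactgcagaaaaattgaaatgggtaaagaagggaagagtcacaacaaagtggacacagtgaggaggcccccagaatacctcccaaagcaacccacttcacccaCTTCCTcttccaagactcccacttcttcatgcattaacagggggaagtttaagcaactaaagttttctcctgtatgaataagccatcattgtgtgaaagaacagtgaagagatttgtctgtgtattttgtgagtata
Mmp12, second entry, chr9:7347124-7347423, + strand: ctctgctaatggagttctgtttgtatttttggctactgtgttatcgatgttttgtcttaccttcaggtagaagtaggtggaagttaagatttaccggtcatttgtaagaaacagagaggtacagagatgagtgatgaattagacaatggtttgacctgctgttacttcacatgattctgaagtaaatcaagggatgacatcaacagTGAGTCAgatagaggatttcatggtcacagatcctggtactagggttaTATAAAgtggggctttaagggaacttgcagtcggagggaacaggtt
Mmp13, chr9:7272264-7272563, + strand: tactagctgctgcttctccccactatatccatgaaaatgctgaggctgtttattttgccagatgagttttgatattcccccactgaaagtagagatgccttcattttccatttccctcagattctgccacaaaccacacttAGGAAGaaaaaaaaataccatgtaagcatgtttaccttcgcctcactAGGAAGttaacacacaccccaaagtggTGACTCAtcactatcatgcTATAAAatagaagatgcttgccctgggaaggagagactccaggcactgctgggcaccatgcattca
The promoter of Mmp13 held an AP-1 match 35 bases before the start, a TATA match and 2 PEA3 matches. The second entry of Mmp12 held an AP-1 match 44 bases before the start and a TATA match 4 bases after it, and the first entry held 1 PEA3 match alone. Of 32851 promoters of this length, 7.81% held an AP-1 match, 13.6% a TATA match and 35.4% a PEA3 match. AP-1 matches stood in 2 of the 7 members with an entry, TATA matches in 3 and PEA3 matches in 6. Which start of Mmp12 these cells used was not measured. There is no entry for Mmp9 or Mmp19.

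**Figure D1:**
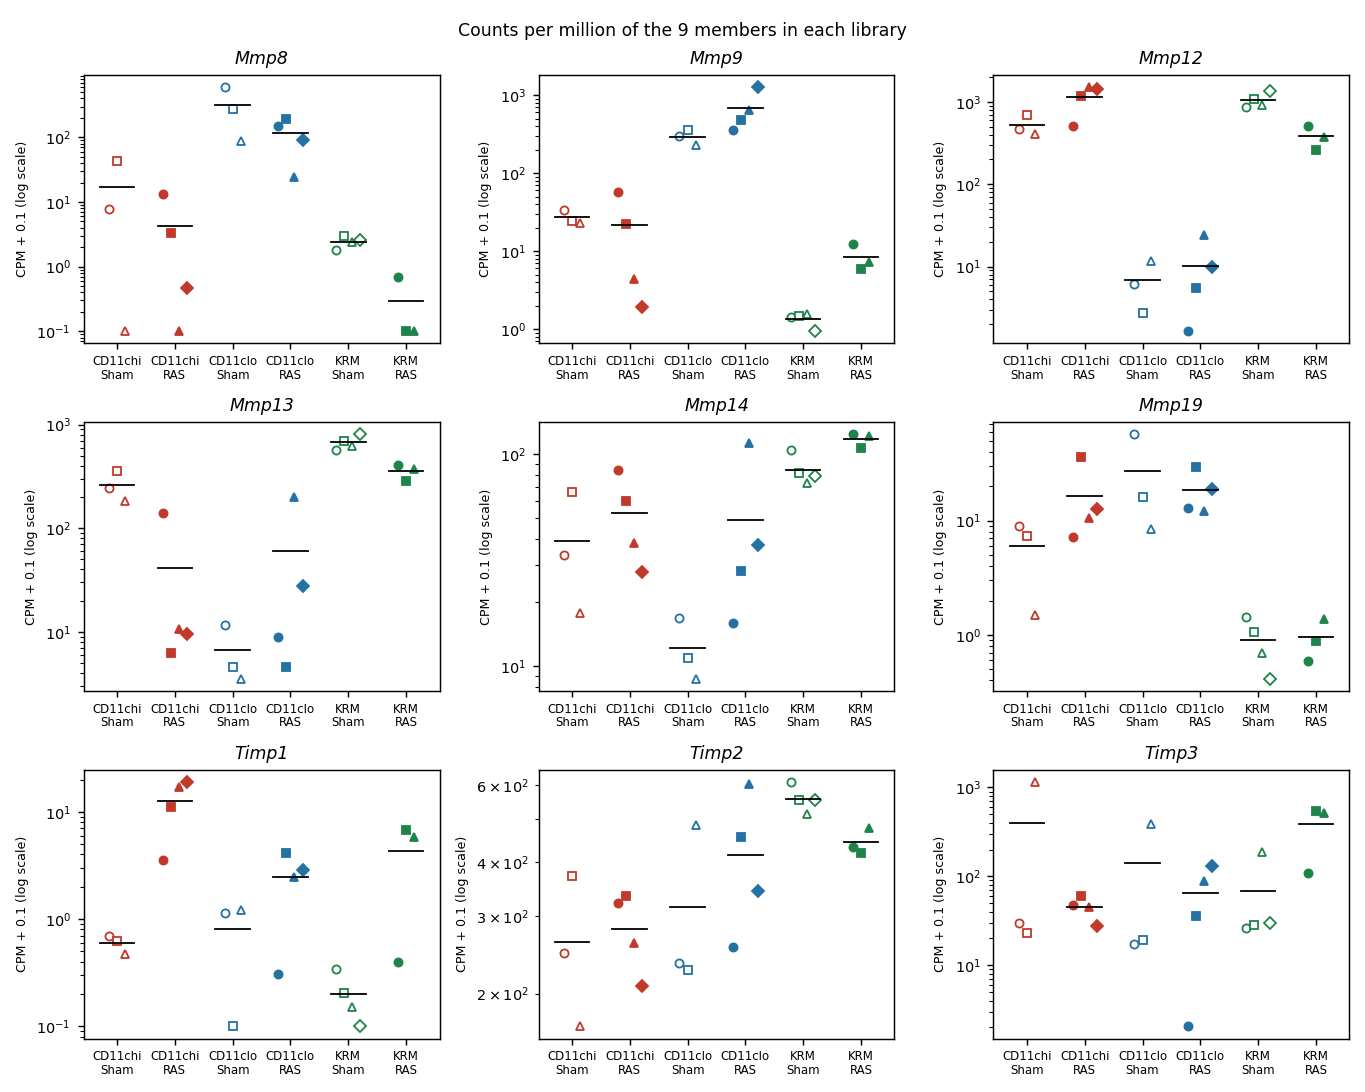
CPM plus 0.1 (log scale) of the 9 members in each of the 21 libraries, by population and treatment. Open symbols are Sham, filled symbols RAS, lines are group means, and circle, square, triangle and diamond are replicates 1 to 4. Mmp12 and Mmp13 sit high in KRM and in CD11chiMϕ of Sham kidneys, Mmp8 and Mmp9 in CD11cloMϕ.

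The collagenases Mmp8 and Mmp13, which cut fibrillar collagen, had nearly opposite patterns. Mmp8 was at 607, 270 and 87.6 CPM in the 3 CD11cloMϕ Sham libraries and at 150, 194, 24.1 and 90.9 CPM in CD11cloMϕ RAS. It was at 7.70, 43.6 and 0.0 CPM in CD11chiMϕ Sham, at 13.3, 3.17, 0.0 and 0.364 CPM in CD11chiMϕ RAS, at 1.69, 2.86, 2.29 and 2.51 CPM in KRM Sham and at 0.589, 0.0 and 0.0 CPM in KRM RAS. CD11cloMϕ was thus the high population, and every KRM library was below every CD11cloMϕ library. Mmp13 was at 569, 695, 619 and 806 CPM in KRM Sham and at 405, 285 and 370 CPM in KRM RAS. In CD11chiMϕ it was at 244, 359 and 184 CPM in Sham, and at 140, 6.18, 10.6 and 9.35 CPM in RAS. In CD11cloMϕ it was at 11.7, 4.52 and 3.43 CPM in Sham and at 8.75, 4.53, 199 and 27.5 CPM in RAS. Mmp13 was highest in KRM Sham, with no overlap with KRM RAS, and 3 of the 4 CD11chiMϕ RAS libraries were at the level of CD11cloMϕ Sham.

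Mmp9, the gelatinase that cuts denatured collagen and basement membrane, was highest in CD11cloMϕ. It was at 297, 356 and 228 CPM in CD11cloMϕ Sham and at 357, 474, 637 and 1279 CPM in CD11cloMϕ RAS. It was at 34.0, 24.2 and 22.5 CPM in CD11chiMϕ Sham and at 56.5, 22.4, 4.26 and 1.82 CPM in CD11chiMϕ RAS. In KRM it was at 1.32, 1.38, 1.45 and 0.837 CPM in Sham and at 12.2, 5.82 and 7.23 CPM in RAS. The 6 group means ran in the order CD11cloMϕ RAS, CD11cloMϕ Sham, CD11chiMϕ Sham, CD11chiMϕ RAS, KRM RAS and KRM Sham, and neighbours overlapped only among CD11chiMϕ Sham, CD11chiMϕ RAS and KRM RAS.

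Mmp12, the macrophage elastase, was abundant in KRM and CD11chiMϕ and low in CD11cloMϕ. It was at 876, 1085, 915 and 1355 CPM in KRM Sham and at 513, 259 and 370 CPM in KRM RAS. It was at 473, 697 and 407 CPM in CD11chiMϕ Sham and at 510, 1178, 1526 and 1425 CPM in CD11chiMϕ RAS. In CD11cloMϕ it was at 6.10, 2.67 and 11.7 CPM in Sham and at 1.55, 5.49, 23.9 and 9.85 CPM in RAS. No CD11cloMϕ library reached the lowest library of the other populations. Mmp12 shares 157 of its 7237 exonic bases with Mmp1b on the opposite strand, which had 0 counts in every library.

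Mmp14, the membrane-type enzyme that activates other metalloproteinases at the cell surface, was at 105, 81.1, 73.0 and 78.4 CPM in KRM Sham and at 124, 107 and 122 CPM in KRM RAS. It was at 33.5, 65.9 and 17.7 CPM in CD11chiMϕ Sham and at 84.1, 60.2, 38.1 and 27.6 CPM in CD11chiMϕ RAS. In CD11cloMϕ it was at 16.8, 10.8 and 8.62 CPM in Sham and at 16.0, 28.0, 113 and 37.0 CPM in RAS. Its levels were higher in every KRM Sham library than in any Sham library of the other populations, and the CD11cloMϕ RAS library that was high for Mmp13, replicate 3, was also the high one for Mmp14. Mmp19, a soluble enzyme with basement membrane substrates, was at 56.7, 16.1 and 8.29 CPM in CD11cloMϕ Sham and at 12.9, 29.5, 11.98 and 18.7 CPM in CD11cloMϕ RAS. It was at 8.90, 7.22 and 1.38 CPM in CD11chiMϕ Sham and at 7.12, 35.5, 10.52 and 12.5 CPM in CD11chiMϕ RAS. It was between 0.314 and 1.32 CPM in the 7 KRM libraries, from 3 to 14 counts a library. Its lowest levels were those of KRM, and because 789 of its 3533 exonic bases are shared with Tmem198b on the opposite strand, reads of these genes cannot be told apart there. Tmem198b had at most 206 counts in a library.

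Among the inhibitors, Timp1 was low in Sham, Timp2 was present throughout and Timp3 was high in single Sham libraries. Timp1, a secreted inhibitor that many cells make after injury, was at 0.600, 0.531 and 0.377 CPM in CD11chiMϕ Sham and at 3.47, 11.1, 16.8 and 18.9 CPM in CD11chiMϕ RAS. In CD11cloMϕ it was at 1.03, 0.0 and 1.11 CPM in Sham and at 0.206, 4.06, 2.37 and 2.80 CPM in RAS. In KRM it was at 0.241, 0.106, 0.0499 and 0.0 CPM in Sham, 2 counts or fewer a library, and at 0.295, 6.68 and 5.68 CPM in RAS. No CD11chiMϕ RAS library overlapped with CD11chiMϕ Sham, while KRM RAS replicate 1, the library whose columns differ, was close to KRM Sham.

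Timp2, which both inhibits metalloproteinases and takes part in the activation of Mmp2 by Mmp14, was present in all libraries, from 168 to 609 CPM. Its means were 558 ± 39.4 (SD, n = 4) and 443 ± 30.7 CPM (SD, n = 3) in KRM of Sham and RAS kidneys, 262 ± 102 (SD, n = 3) and 281 ± 57.8 CPM (SD, n = 4) in CD11chiMϕ, and 315 ± 147 (SD, n = 3) and 414 ± 149 CPM (SD, n = 4) in CD11cloMϕ. It varied least of the members, with a root mean square deviation of 0.543 on the log2 scale over the 21 libraries, where the other members had 1.18 to 3.69.

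Timp3, the inhibitor that binds to the matrix itself, followed the libraries with nephron markers. In Sham it was at 30.1, 22.9 and 1157 CPM in CD11chiMϕ, at 17.2, 19.0 and 388 CPM in CD11cloMϕ, and at 26.4, 28.6, 188 and 29.7 CPM in KRM. The high value in each of these groups was that of replicate 3. In RAS it was at 47.9, 60.1, 45.5 and 27.2 CPM in CD11chiMϕ, at 1.96, 36.0, 89.7 and 131 CPM in CD11cloMϕ, and at 109, 538 and 516 CPM in KRM. The 5 libraries with the most Timp3, 188 CPM or more, were also the 5 with the highest summed CPM of the 10 proximal tubule and 10 distal nephron markers, from 2617 to 16380. In the other 16 libraries that sum lay between 71.3 and 1748. Timp3 also shares 1733 of its 8144 exonic bases with Syn3 on the opposite strand, which had at most 21 counts in a library. The part of nephron RNA in the Timp3 values was not tested.

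**Figure D2:**
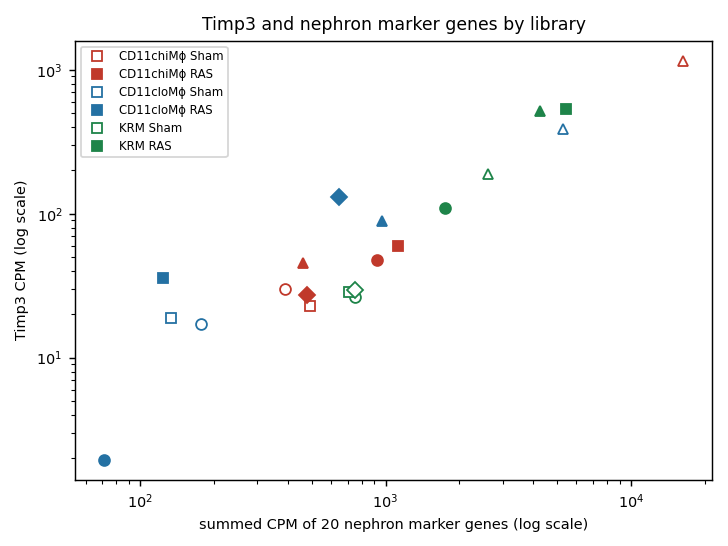
Timp3 CPM (y axis, log scale) against the summed CPM of 10 proximal tubule and 10 distal nephron marker genes (x axis, log scale) in the 21 libraries. Colours are populations, open symbols Sham and filled symbols RAS, and circle, square, triangle and diamond replicates 1 to 4. The 5 libraries with the most nephron marker counts are the 5 with the most Timp3.

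Compared per kilobase of exon, the members differed in level within a population. In KRM Sham the mean was 252 ± 38.6 CPM per kb for Mmp13, 146 ± 30.1 for Mmp12 and 143 ± 10.1 for Timp2 (SD, n = 4), and Mmp14, the next enzyme, was at 14.1 ± 2.35. In CD11cloMϕ Sham the highest were Mmp8 at 133 ± 109, Mmp9 at 82.9 ± 18.2 and Timp2 at 81.0 ± 37.8 CPM per kb (SD, n = 3), whose ranges overlapped. In CD11chiMϕ the order of the Mmp12 and Mmp13 means per kb differed between treatments. Mmp13 had 98.1 ± 33.4 and Mmp12 72.6 ± 20.99 CPM per kb in Sham (SD, n = 3), while in RAS they had 15.5 ± 24.6 and 160 ± 63.2 (SD, n = 4). The lengths count all annotated exonic bases, 7237 for Mmp12 and 2673 for Mmp13, and the transcripts used were not measured. In CPM, Mmp12 was above Mmp13 in every KRM Sham and every CD11chiMϕ library.

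The count of Mmp12 divided by that of Mmp13 in the same library does not depend on scaling. It was 1.94, 1.94 and 2.21 in CD11chiMϕ Sham and 3.64, 191, 143 and 152 in CD11chiMϕ RAS. In KRM it was 1.54, 1.56, 1.48 and 1.68 in Sham and 1.27, 0.908 and 1.00 in RAS. In both populations the Sham and RAS libraries did not overlap, and the ratio was higher in RAS for CD11chiMϕ and lower in RAS for KRM. In CD11cloMϕ, where Mmp12 had 15 to 211 counts a library and Mmp13 31 to 1758, it was 0.522, 0.590 and 3.42 in Sham and 0.176, 1.21, 0.120 and 0.358 in RAS. The ratio describes unequal change of the pair within a library, and the genes were picked after their values were seen.

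**Figure D3:**
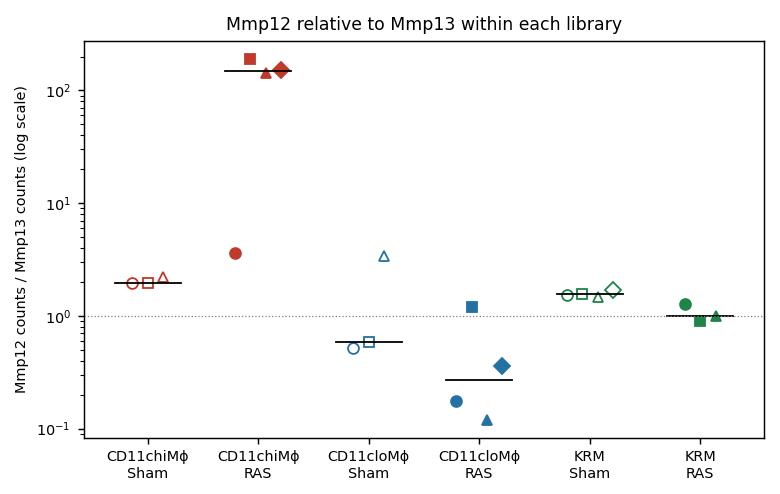
Counts of Mmp12 divided by counts of Mmp13 in each library (log scale), by population and treatment. Lines are group medians, the dotted line is a ratio of 1, open symbols are Sham and filled symbols RAS, and circle, square, triangle and diamond are replicates 1 to 4. CD11chiMϕ RAS replicates 2 to 4 lie at 143 to 191, and replicate 1 at 3.64.

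Populations were first compared in Sham kidneys, which asks how the resident cells differ from monocyte-derived macrophages without stenosis. Against CD11cloMϕ, KRM had higher Mmp12, Mmp13, Mmp14 and Timp2 and lower Mmp8, Mmp9 and Mmp19. Of the 8 members tested 7 passed an adjusted p of 0.05 (edgeR's quasi-likelihood test, Benjamini-Hochberg adjustment), where 41.8% of all genes tested did. The log2 difference, KRM minus CD11cloMϕ, was -7.86 for Mmp9 (standard error 0.257, adjusted p = 9.34e-07, 4 against 3 libraries) and -7.13 for Mmp8 (standard error 0.675, adjusted p = 9.99e-05). It was 6.64 for Mmp13, 7.26 for Mmp12, 2.77 for Mmp14, -5.14 for Mmp19 and 0.81 for Timp2. Timp3 differed by -1.002 with a 95% interval of -3.69 to 1.69, and was higher in KRM by 0.60 (adjusted p = 0.0214) once the Sham libraries of replicate 3 were left out, a choice made after seeing the data. Timp1 had too few counts to be tested by edgeR in the Sham comparisons. The call of Timp2 was lost when any 1 library other than CD11cloMϕ Sham replicate 3 was left out (adjusted p of up to 0.0985). The neutrophil list moved with Mmp8 and Mmp9. Its 10 genes summed to 697 to 1636 CPM in CD11cloMϕ Sham and to 3.35 to 7.10 CPM in KRM Sham. Of the 4 genes of the list with enough counts to be tested all 4 were lower in KRM, and most of the sum came from Retnlg, S100a9 and S100a8, at means of 987.3, 116.2 and 106.3 CPM in CD11cloMϕ Sham. The 6 defining genes Ly6g, Camp, Ltf, Ngp, Elane and Mpo together summed to 2.09 to 20.9 CPM in CD11cloMϕ Sham and to 0.0 to 0.212 in KRM Sham. The monocyte list also moved with them, lower in KRM in 10 of 10 genes, with 7177 to 18610 summed CPM in CD11cloMϕ Sham and 588.7 to 882.7 in KRM Sham. Other lists moved with the higher enzymes, with 9 of 10 macrophage genes higher and 1 lower in KRM, 4 of 5 tested B and plasma cell genes higher, and 4 of 9 tested dendritic cell genes higher and 1 lower. The B and plasma cell list summed to 943.3 to 1182 CPM in KRM Sham and 209.1 to 300.6 in CD11cloMϕ Sham. The part of these lists in the values of the members was not tested.

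Against CD11chiMϕ in Sham, KRM had higher Mmp13 and lower Mmp9. These were 2 of 8 members tested, where 5.12% of all genes passed. The log2 difference, KRM minus CD11chiMϕ, was -4.46 for Mmp9 (standard error 0.29, adjusted p = 0.00205) and 1.32 for Mmp13 (standard error 0.259, adjusted p = 0.033). Mmp12, Mmp14, Mmp19 and Timp2 did not pass, with differences of 0.96, 1.08, -2.90 and 1.05 and adjusted p-values of 0.0837, 0.156, 0.0606 and 0.0664. Blocked on the replicate number, the fit gave Mmp13 an adjusted p of 0.149 and 1 member passed, where 89 of 12404 genes did. Without CD11chiMϕ Sham replicate 3, the library with the most tubule markers, 6 members passed where 13.6% of all genes did, without CD11chiMϕ Sham replicate 2 there were 4 (6.95% of all genes), and without CD11chiMϕ Sham replicate 1 or any 1 of the KRM Sham libraries 1 passed (1.27% to 1.84%). Of all genes called, 80.5% were lower in KRM, and 68.0% in limma on the quantile normalised table. Of the marker lists, 7 of 10 monocyte, 5 of 10 dendritic cell and 2 of 3 tested neutrophil genes were lower in KRM, as were 2 of 6 tested endothelial genes, a list at 13.7 to 27.4 summed CPM in KRM Sham and 32.7 to 255.9 in CD11chiMϕ Sham, while 1 macrophage gene was higher. The sums of the first 3 lists were 588.7 to 882.7, 218.7 to 259.3 and 3.35 to 7.10 CPM in KRM Sham and 637.8 to 3333, 443 to 1956 and 27.9 to 92.4 in CD11chiMϕ Sham, and their part was not tested.

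Between the monocyte-derived populations in Sham, CD11chiMϕ had higher Mmp12 and Mmp13 and lower Mmp9 than CD11cloMϕ. These were 3 of 8 members, where 1.52% of all genes passed. The log2 differences were 6.33 for Mmp12 (standard error 0.653, adjusted p = 0.0208), 5.39 for Mmp13 (standard error 0.584, adjusted p = 0.022) and -3.37 for Mmp9 (standard error 0.271, adjusted p = 0.0191). Blocked on the replicate number, 5 members passed, Mmp8 and Mmp19 among them (adjusted p = 0.0496 and 0.0412), where 595 of 12105 genes did. Leaving out any library but CD11chiMϕ Sham replicate 3 left 0 of the members called, with adjusted p-values of up to 0.182 for Mmp12, with 0.0% of all genes called, and leaving out that library left 4, with 5.7%. The neutrophil list summed to 27.9 to 92.4 CPM in CD11chiMϕ Sham and 697 to 1636 in CD11cloMϕ Sham, the monocyte list to 637.8 to 3333 and 7177 to 18610, and the dendritic cell list to 443 to 1956 and 113.1 to 229.5. Of the single genes 1 monocyte gene was lower and 1 dendritic cell gene higher in CD11chiMϕ, and their part was not tested.

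**Figure D4:**
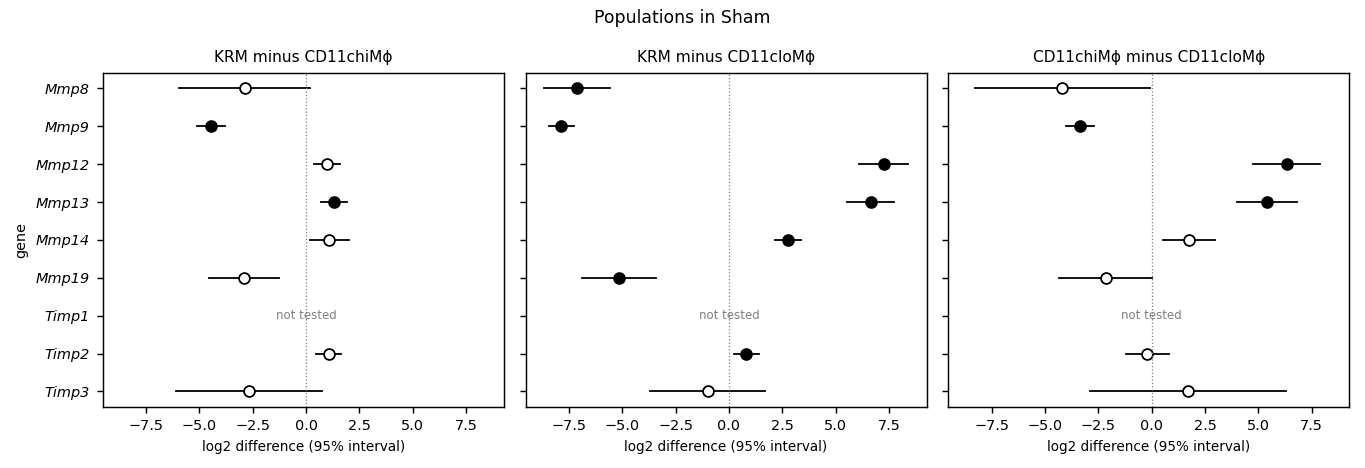
Differences between populations in Sham kidneys for the 9 members, as log2 differences (x axis) with 95% intervals. Filled points passed an adjusted p of 0.05 in edgeR's quasi-likelihood test. Mmp12 and Mmp13 lie to the right and Mmp9 to the left in both comparisons with CD11cloMϕ.

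The same populations were compared in RAS kidneys. KRM had lower Mmp8, Mmp9 and Mmp19 and higher Mmp12 than CD11cloMϕ, 4 of 9 members tested where 9.17% of all genes passed. The log2 difference was -6.33 for Mmp9 (standard error 0.634, adjusted p = 0.0089), 5.28 for Mmp12 (standard error 0.813, adjusted p = 0.0198) and -4.36 for Mmp19 (standard error 0.548, adjusted p = 0.0135). For Mmp8 KRM RAS had 6 counts in replicate 1 and 0 in replicates 2 and 3, against 213 to 1629 counts in CD11cloMϕ RAS. Mmp13 had a difference of 2.64 (adjusted p = 0.155), which was 4.76 (adjusted p = 0.0127) without CD11cloMϕ RAS replicate 3. Without KRM RAS replicate 1 Mmp9, Mmp12, Mmp13 and Mmp19 had -6.69, 4.997, 2.52 and -4.11 (adjusted p = 0.00702, 0.0136, 0.187 and 0.0102), and Mmp8, then at 0 counts in KRM RAS, an adjusted p of 0.0127. The number of members called was 6 without CD11cloMϕ RAS replicate 3 (16.2% of all genes) and 4 without KRM RAS replicate 1 (23.0%). It was 2 without CD11cloMϕ RAS replicate 2 or 4 (0.346% and 0.686%). It was 0 without KRM RAS replicate 2 or 3 (0.0% of all genes for each). Of all genes called, 64.2% were lower in KRM, and 34.1% when scaled by total library size. The same lists moved with Mmp8 and Mmp9 here, with 5 of 5 tested neutrophil genes and 10 of 10 monocyte genes lower in KRM. They summed to 0.733 to 11.5 and 610.9 to 1029 CPM in KRM RAS, and to 1581 to 2427 and 3564 to 10350 CPM in CD11cloMϕ RAS. Higher in KRM were 2 of 10 distal nephron, 2 of 10 proximal tubule and 2 of 8 T and NK cell genes, lists that summed to 103.5 to 4473, 914.5 to 1645 and 34.0 to 335.6 CPM in KRM RAS and to 4.84 to 296.1, 66.4 to 669.9 and 8.23 to 31.5 in CD11cloMϕ RAS. Of the macrophage genes 1 was higher and 1 lower, and 1 dendritic cell gene was lower. The part of these lists was not tested.

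Against CD11chiMϕ in RAS, KRM had lower Mmp19 and higher Timp3, 2 of 8 members where 9.23% of all genes passed. The log2 differences were -4.20 for Mmp19 (standard error 0.746, adjusted p = 0.0265) and 3.17 for Timp3 (standard error 0.555, adjusted p = 0.0258). Mmp8 had too few counts to be tested. Timp3 stood beside distal nephron markers of 103.5 to 4473 summed CPM in KRM RAS and 16.7 to 180.6 in CD11chiMϕ RAS, and 4 of that list were higher in KRM. Of the other lists, 3 of 10 proximal tubule genes were higher, and 5 of 10 dendritic cell and 2 of 10 monocyte genes lower. These summed to 914.5 to 1645, 211.6 to 257.7 and 610.9 to 1029 CPM in KRM RAS and 296.3 to 1109, 1215 to 5688 and 1212 to 2880 in CD11chiMϕ RAS, and the part of these lists was not tested. Mmp13 differed by 3.16 (adjusted p = 0.0931) and by 5.44 (adjusted p = 7.22e-04) without CD11chiMϕ RAS replicate 1. Mmp12 differed by -1.55 (adjusted p = 0.0598) and by -1.84 (adjusted p = 0.042) without KRM RAS replicate 1, where Mmp19 had -3.95 and Timp3 3.58 (adjusted p = 0.0183 and 8.97e-04). Without CD11chiMϕ RAS replicate 1, 5 members passed (17.6% of all genes), and without KRM RAS replicate 1 there were 3 (19.6%). Without CD11chiMϕ RAS replicate 2 there was 1 (1.56%). Without CD11chiMϕ RAS replicate 3 or 4 or KRM RAS replicate 2 or 3 there were 0, where 0.103% to 0.381% of all genes passed.

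CD11chiMϕ and CD11cloMϕ of RAS kidneys differed in Mmp12, which was higher in CD11chiMϕ by 6.83 on the log2 scale (standard error 0.838, adjusted p = 0.0036), and in Mmp8 and Mmp9, which were lower, at -4.73 and -5.01 (adjusted p = 0.0383 and 0.0195). These were 3 of 9 members where 8.27% of all genes passed. Mmp13, the neighbour of Mmp12, had a difference of -0.53 with a 95% interval of -3.36 to 2.30, which was 1.61 without CD11cloMϕ RAS replicate 3 and -2.78 without CD11chiMϕ RAS replicate 1 (adjusted p = 0.434 and 0.152). Leaving out 1 library gave from 1 to 4 members, where 2.02% to 17.3% of all genes passed. The fewest were without CD11chiMϕ RAS replicate 2 or 3 or CD11cloMϕ RAS replicate 4 (4.74%, 2.02% and 2.36% of all genes). Other lists differed as well, with 9 of 10 dendritic cell genes and 5 of 6 tested T and NK cell genes higher in CD11chiMϕ, and 5 of 10 monocyte and 3 of 6 tested neutrophil genes lower. The dendritic cell list summed to 1215 to 5688 CPM in CD11chiMϕ RAS and 189.2 to 487.2 in CD11cloMϕ RAS, the T and NK cell list to 56.2 to 244.4 and 8.23 to 31.5, the monocyte list to 1212 to 2880 and 3564 to 10350, and the neutrophil list to 6.44 to 232.1 and 1581 to 2427. Their part in the values of the members was not tested. These population comparisons share libraries with each other and with those of RAS against Sham.

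RAS was then compared with Sham in each population, the question of what stenosis changes. In KRM, Mmp9 rose and Mmp12 and Mmp13 fell in RAS, 3 of 7 members tested where 9.7% of all genes passed. The log2 difference, RAS minus Sham, was 2.83 for Mmp9 (standard error 0.368, adjusted p = 0.014), from 1.25 ± 0.277 (SD, n = 4) to 8.41 ± 3.34 CPM (SD, n = 3). It was -1.37 for Mmp12 (standard error 0.257, adjusted p = 0.0276), from 1058 ± 218 to 381 ± 127 CPM. It was -0.82 for Mmp13 (standard error 0.175, adjusted p = 0.0342), from 672 ± 103 to 354 ± 61.7 CPM. Mmp8 had a difference of -3.46 with an adjusted p of 0.0671 (0.00994 in DESeq2). Its 6 counts in KRM RAS were all in replicate 1, without which the fitted difference was -7.74 (adjusted p = 8.69e-04), a value that depends on the prior count because the other libraries had 0. Mmp14 had a difference of 0.58 with an adjusted p of 0.0504, Timp2 of -0.22 (95% interval -0.514 to 0.0648) and Timp3 of 2.60 (adjusted p = 0.0892). The Timp3 difference was 3.90 without KRM Sham replicate 3, rich in tubule markers, and 2.26 without KRM RAS replicate 2. Timp3 gained the call in 2 of the 7 fits with 1 library left out. Timp1 and Mmp19 had too few counts to be tested by edgeR. Of all 1247 genes called, 249 were lower in RAS, against 57.4% of those called by limma on the quantile normalised table. The genes limma called were 2593 of 14020. The members among them were Mmp8, Mmp12, Mmp13, Mmp14 and Timp1, the last with a difference of 3.46 (adjusted p = 7.89e-04). In limma Mmp9 had 1.95 (adjusted p = 0.147) and Mmp19 0.69 (adjusted p = 0.531).

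Without KRM RAS replicate 1, the library whose columns differ between the tables, 7 of 9 members tested passed, with Mmp8, Mmp14, Timp1 and Timp3 added, and 7070 genes passed in place of 1247, 50.2% of those tested. Its count column also held 335.6 summed CPM of T and NK cell markers and 2468 of B and plasma cell markers, against 34.0 to 35.3 and 409 to 432 in KRM RAS replicates 2 and 3. Mmp12, Mmp13 and Mmp9 then had differences of -1.67, -0.96 and 2.44 (adjusted p = 9.65e-04, 0.00368 and 0.00104). Leaving out KRM RAS replicate 2 or 3, or KRM Sham replicate 1, 2 or 4, left 0 of the members called. In these fits 0.216% to 0.338% of all genes passed. Leaving out KRM Sham replicate 3 left 4 members, where 10.6% of all genes passed. Markers of other cells moved between KRM RAS and Sham too. All 8 T and NK cell genes were higher in RAS, from 2.33 to 3.01 summed CPM in Sham to 34.0 to 335.6, and so were 6 of 8 tested distal nephron, 5 of 8 tested fibroblast and pericyte and 4 of 8 tested endothelial genes, the last list at 13.7 to 27.4 summed CPM in Sham and 33.1 to 216.7 in RAS. Of the 10 macrophage genes 2 were lower. Of 10 dendritic cell genes 3 were higher and 1 lower, and of 10 monocyte genes Fn1 and Plac8 were higher and Chi3l3 lower. The macrophage markers summed to 5420 to 9640 CPM in KRM RAS and to 11050 to 13430 in KRM Sham, and the fibroblast and pericyte markers to 46.9 to 705 and 21.6 to 44.2. These values moved with the members, and their part was not tested.

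In CD11chiMϕ no member passed, 0 of 9 by edgeR where 0.0% of all genes passed. At an unadjusted p under 0.05 there were 4 members and 1247 of 12739 genes. DESeq2 called 1 member, Timp1 (adjusted p = 1.94e-06), and 188 genes, and limma on the log2 table called 0 of both. Timp1 had a log2 difference, RAS minus Sham, of 4.51 (standard error 0.704, adjusted p = 0.442 in edgeR), from 0.503 ± 0.114 (SD, n = 3) to 12.6 ± 6.91 CPM (SD, n = 4). Mmp13 had a difference of -2.70 (standard error 1.09, adjusted p = 0.508), from 262 ± 89.2 to 41.5 ± 65.6 CPM. Both genes had no overlap between the groups, and in both RAS replicate 1 was the library nearest to Sham. The share of all genes without overlap was not counted. Without it edgeR called both, with differences of 4.81 for Timp1 (adjusted p = 0.0296) and -5.00 for Mmp13 (adjusted p = 0.0186), among 39 genes in all.

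CD11chiMϕ RAS replicate 1 differed from replicates 2 to 4 in its markers as well. Its macrophage list summed to 6781 CPM against 3233 to 4010, and its dendritic cell list to 1215 CPM against 2245 to 5688, where CD11chiMϕ Sham had 2563 to 8335 and 443 to 1956. Its fibroblast and pericyte list summed to 38.9 CPM against 107.9 to 371.6, where Sham had 19.9 to 38.3. The T and NK cell list did not overlap between RAS (56.2 to 244.4 CPM, the highest in replicate 1) and Sham (3.08 to 23.9). Their part in the Mmp13 and Timp1 values was not tested. Mmp12 had a difference of 1.06 (95% interval 0.062 to 2.05, adjusted p = 0.508) and Mmp9 of -0.39 (95% interval -2.64 to 1.85). Timp2 had a difference of 0.03 with a 95% interval of -0.729 to 0.795. Timp3 had -3.31 (adjusted p = 0.508), and 0.73 without CD11chiMϕ Sham replicate 3.

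In CD11cloMϕ edgeR called 0 of 9 members, where 0.0% of all genes passed, and 3 members and 1102 of 12301 genes had an unadjusted p under 0.05. DESeq2 called 0 members and 107 genes, and limma 0 of both. Mmp9 did not overlap between the groups, with a log2 difference of 1.22 (95% interval 0.226 to 2.21, adjusted p = 0.553). How many of all genes did not overlap was not counted here either. The neutrophil list summed to 697 to 1636 CPM in CD11cloMϕ Sham and 1581 to 2427 in RAS, and its 6 defining genes to 2.09 to 20.9 and 8.82 to 99.8. RAS replicate 4 was the highest library for Mmp9 and for the list. Mmp13 had 3.19 and Mmp14 2.00 (adjusted p = 0.553 for each), both with RAS replicate 3 as the highest library, and 1.07 and 1.17 without it (adjusted p = 0.79 and 0.774). That library also had the highest macrophage list of its group, 11540 CPM against 6198 to 7510, and the lowest monocyte list, 3564 against 7555 to 10350. The part of these lists was not tested.

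**Figure D5:**
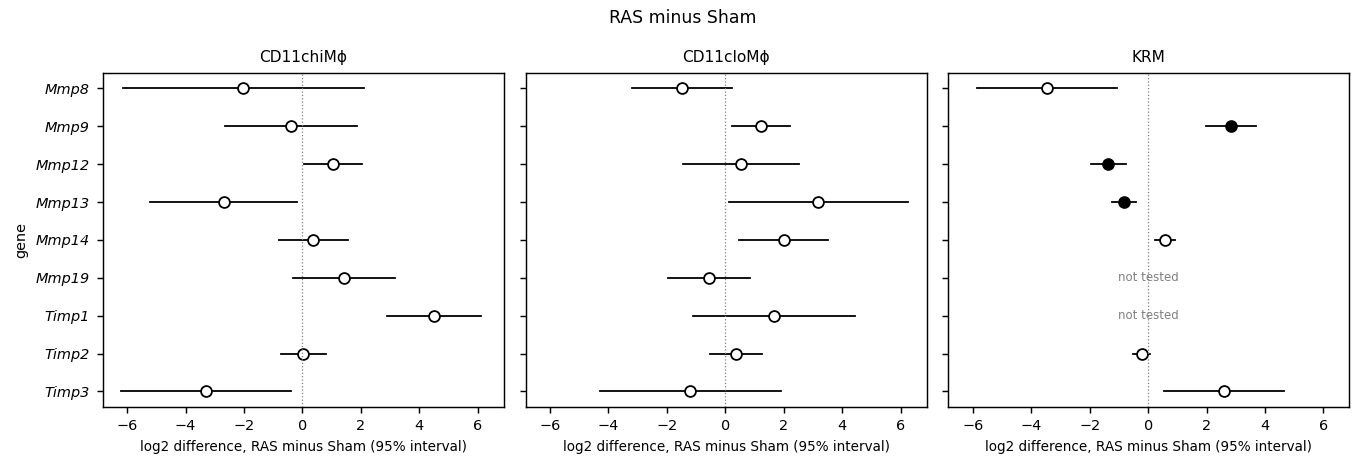
Log2 differences between RAS and Sham (x axis, RAS minus Sham) with 95% intervals for the 9 members in each population. Filled points passed an adjusted p of 0.05 in edgeR's quasi-likelihood test, which only Mmp9, Mmp12 and Mmp13 in KRM did, and genes with too few counts are marked as not tested.

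Whether the response to RAS differed between populations was tested as an interaction. No member passed in any of the 3 tests by edgeR, where 0.0% of all genes passed for KRM against CD11chiMϕ, 0.245% for KRM against CD11cloMϕ and 0.0% for CD11chiMϕ against CD11cloMϕ. At an unadjusted p under 0.05 there were 3, 3 and 1 of 9 members, and 2999, 3289 and 900 genes. DESeq2 called 1, 1 and 0 members and 1221, 1419 and 15 genes. The responses of Mmp12 differed by -2.48 on the log2 scale between KRM and CD11chiMϕ (standard error 0.515, adjusted p = 0.098), being -1.37 in KRM and 1.06 in CD11chiMϕ. DESeq2 gave an adjusted p of 2.00e-04 for it. Without CD11chiMϕ RAS replicate 1 edgeR called Mmp12 and Mmp13 (differences of -2.72 and 4.12, adjusted p = 0.0222 and 0.00126), and without KRM RAS replicate 1 Mmp12 and Timp3 (-2.75 and 6.23, adjusted p = 0.0199 and 0.0484), where 0.412% and 7.4% of all genes passed. The Timp3 difference was 5.80 (adjusted p = 0.105) with all libraries and 1.81 (adjusted p = 0.641) without CD11chiMϕ Sham replicate 3. The responses of Mmp13 differed by -4.03 between KRM and CD11cloMϕ (adjusted p = 0.124) and by -5.85 between CD11chiMϕ and CD11cloMϕ (adjusted p = 0.735). Without CD11cloMϕ RAS replicate 3 these were -1.96 and -3.77, and without CD11chiMϕ RAS replicate 1 the latter was -8.10 (adjusted p = 0.172, 0.972 and 0.101). Between KRM and CD11cloMϕ 0 members passed without KRM RAS replicate 1 either, where 16.1% of all genes did, with Mmp13 at -4.15 (adjusted p = 0.0883). That no member passed with all libraries does not show that the responses were alike.

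Most of the rest of the family had few counts. Of 17 further Mmp genes, 2 to 5 had enough counts to be tested in any 1 comparison of a pair of groups. With all libraries Mmp2, the gelatinase that Mmp14 activates, was the 1 that passed in any of these comparisons, at 1.10 ± 0.251 CPM (SD, n = 4) in KRM Sham and 16.8 ± 7.93 CPM (SD, n = 3) in KRM RAS (log2 difference 4.02, adjusted p = 0.0111). Its means in Sham and RAS were 1.04 ± 0.73 (SD, n = 3) and 7.67 ± 3.63 CPM (SD, n = 4) in CD11chiMϕ. In CD11cloMϕ they were 2.00 ± 0.956 and 7.97 ± 6.05 CPM, and it passed in neither. The lowest KRM RAS library for Mmp2 was replicate 1, at 7.76 CPM. The fibroblast and pericyte markers were lowest there too, at 46.9 summed CPM against 643 and 705, and their part was not tested. Without that library Mmp2 differed by 4.32 (adjusted p = 2.74e-05) and 7 of 9 tested further Mmp genes were higher in RAS, where 50.2% of all genes passed. In the cluster on chromosome 9, Mmp3 and Mmp7 had at most 24 and 52 counts in a library, both in KRM RAS. Of the further inhibitors Timp4, Reck and A2m, at most 2 had enough counts to be tested in a comparison and none passed with all libraries, while 2 of 2 were higher in KRM RAS without replicate 1.

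Genes that act with the metalloproteinases were counted by list. In KRM, RAS against Sham, where 9.7% of all genes passed, 5 of 9 tested matrix substrates rose and none fell. Col1a1, a chain of fibrillar collagen, was at 58.7 ± 45.9 CPM in RAS (SD, n = 3) and 2.51 ± 1.25 in Sham (SD, n = 4), and Col3a1 was at 96.1 ± 70.4 and 7.44 ± 3.35 (adjusted p = 0.0268 and 0.0269). Both genes are also on the fibroblast and pericyte marker list. A cytokine list held Il1b, Tnf, Osm, Il6, Il10, Tgfb1 and Csf2. Of its 6 tested genes 4 rose, among them Osm with a log2 difference of 2.00 (adjusted p = 0.0163) and Il1b with 1.30 (adjusted p = 0.0487). Of 9 tested genes of activation and docking 3 rose, including Plaur, the urokinase receptor, by 2.84 (adjusted p = 0.016). In KRM RAS replicate 1, Col1a1, Col3a1, Osm, Il1b and Plaur were each lower than in replicates 2 and 3, with Col1a1 at 6.68 CPM against 76.0 and 93.4. Without that library, where 50.2% of all genes passed, 9 of 10 tested substrates, 5 of 7 cytokines and 5 of 9 genes of activation and docking were higher in RAS and 1 cytokine was lower. The last of these shares is near that of all genes. Leaving out KRM RAS replicate 2 or 3, or KRM Sham replicate 1, 2 or 4, left 0.216% to 0.338% of all genes called. The lists were not counted in those fits. The medians over the tested genes of these lists, with all libraries, were 2.02, 1.65 and 0.50, where the median over all genes was 0.02 and over the members -0.22. The fibroblast and distal nephron marker sums given above were highest in KRM RAS replicates 2 and 3, and their part was not tested. In CD11chiMϕ and CD11cloMϕ, RAS against Sham, 0 genes of these lists passed, as for all genes.

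Components of AP-1, the factor with the site in the Mmp13 promoter, moved both ways in KRM, with 1 of 6 tested genes higher and 1 lower in RAS. Fosl2 was at 5.40 ± 0.513 CPM in Sham (SD, n = 4) and 91.8 ± 68.8 in RAS (SD, n = 3), a log2 difference of 4.21 (adjusted p = 0.0229), while Jun fell by 1.22 (adjusted p = 0.0326). Without KRM RAS replicate 1, which had 13.7 CPM of Fosl2 against 118.6 and 143.2, the differences were 4.67 and -1.52 (adjusted p = 1.74e-06 and 0.00109). Fosb, Fosl1 and Junb were then higher as well, 4 of 7 tested genes with Fosl2, where 50.2% of all genes passed. In Sham, KRM had lower Fosl2 than CD11cloMϕ, at -5.27, and lower Osm, Plaur and Fn1, at -4.26, -6.06 and -7.49 (adjusted p of 8.03e-06 or below). In that comparison, where 41.8% of all genes passed, 4 of 7 tested AP-1 genes, 6 of 10 of activation and docking, 4 of 6 cytokines and 2 of 9 substrates were lower in KRM. Jun and the laminin chain Lamc1 were higher, by 1.19 and 1.83 (adjusted p = 0.0167 and 0.00291), and 1 gene of activation and docking was higher. Adam8, a membrane metalloproteinase-disintegrin of leukocytes, was lower in KRM than in CD11cloMϕ, at 3.68 ± 0.847 and 324 ± 94.4 CPM in Sham (adjusted p = 3.10e-06), the same direction as Mmp8 and Mmp9.

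For each member the 3 genes with the most alike profile were found by the root mean square difference of log2 CPM, centred per gene, over the 21 libraries, among 8887 genes with a mean log2 CPM of at least 3. Mmp8 was nearest to Chi3l3 (0.774), Hp and Retnlg, and Mmp9 to G0s2 (1.04), Fcna and Plac8. Mmp12 was nearest to H2-M2 (1.38), Itgax, which encodes the CD11c used in the sort, and Gbp8, and Mmp13 to Ch25h (0.783), Srpk3 and Cadm1. Mmp14 was nearest to Olfml3 (0.44), Slc37a2 and Loxl3, and Mmp19 to S100a6 (0.703), Slc2a6 and Vim. Among the inhibitors Timp1 was nearest to Mt2 (0.903), Ltbp3 and Grasp, Timp2 to Acp2 (0.281), Nisch and Lgals3bp, and Timp3 to Plscr2 (0.382), Pth1r and 0610010O12Rik. With a prior count of 0.5 in place of 2, Mmp12 was nearest to Gbp8, then Itgax and H2-M2, Timp1 was nearest to Nr4a3, Mt2 and Tnip3, and Gda took the place of Vim for Mmp19. Chi3l3, Hp and Plac8 are on the monocyte list, Retnlg is on the neutrophil list and Itgax on the macrophage list. All profiles share the same libraries, so likeness follows population, treatment and any library that stands apart.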

How the data were processed

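RNA of sorted cells was amplified with the SMART-Seq v4 Ultra Low-Input kit, made into libraries with Nextera XT and sequenced as paired ends. One deposited table holds estimated counts, which the authors made without normalisation by aligning reads to mm10 with the OSA aligner and assigning them to Ensembl R83 genes. A second deposited table holds log2 values, log2(TPM + 1) after quantile normalisation, and was used only in limma. The authors' own comparisons (DESeq2) were not used.

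Counts were rounded, and 3730 lines that share a symbol were summed, which left 34236 symbols from 37620 lines. Each of the 21 columns was matched to its library by name, with 6891137 to 18592376 counts a library, and replicates of a group all differed beyond counting error. Groups were taken from the labels. Each comparison was fitted in edgeR 4.0.16 (R 4.3.3) on its own libraries, with TMM factors, filterByExpr (minimum count 10, minimum total 15), the two-sided quasi-likelihood F test and Benjamini-Hochberg adjustment over all genes tested, with a threshold of 0.05. There were 9 comparisons of pairs of groups and 3 interactions. CPM are TMM-scaled over all 21 libraries, log2 CPM use a prior count of 2, and exon lengths and positions come from GENCODE vM21 (GRCm38). Reads were not assigned by strand as far as the sources used here say.

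The members and gene lists were chosen with earlier results of these data known. Named genes are all members in every library, at most 4 called genes with the largest difference per list and comparison, and the 3 genes most like each member. Libraries with the same replicate number were checked for pairing. Their deviations from the group means correlated by at least 0.201 in every pair of the population comparisons in Sham. The threshold for pairing was 0.1. The main fits did not use the pairing, and the block on the replicate number was run only as an alternative. Replicate 3, the libraries rich in tubule markers, had the highest correlations, 0.542 to 0.647. Deviations within a group depend on each other, so these values do not show that the other numbers pair. Alternatives were median-of-ratios factors, total library size, no filter, 1 fit over all 6 groups, a block on the replicate number, limma 3.58.1 with the log2 values, DESeq2 1.42.0 and each library left out. Leaving out the Sham libraries of replicate 3 was added after seeing the data. The scripts were tested on simulated data, in which the interaction test recovered few changed genes at a spread below that of these libraries.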

Additional observations from a re-analysis of the deposited data

Results flagged for a closer look

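In 27 groups of 4 libraries (9 members in 3 groups), the gap between the most extreme library and its nearest neighbour was set against the range of the group, and 3 stood out by Dixon's 95% critical value. For normally distributed values chance gives about 1 in 20. The CPM were not put on a log scale and the members share libraries, so that rate is only a rough guide here. Mmp13 in CD11chiMϕ RAS replicate 1 was at 140 CPM, with the next library at 10.6 and the lowest at 6.18. Mmp13 in CD11cloMϕ RAS replicate 3 was at 199 CPM, with the next at 27.5 and the lowest at 4.53. Timp3 in KRM Sham replicate 3 was at 188 CPM, with the next at 29.7 and the lowest at 26.4, in the library with the most proximal tubule marker counts of its group.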

How the results depend on the processing

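Over all settings tried, among members called or with a difference of at least 1 on the log2 scale, 1042 log2 differences kept their direction and side of the threshold, 90 lost the call, 47 gained it and 11 turned, and median-of-ratios factors moved no count of members called by more than 1.5 times. The cause of these shifts was not tested. For KRM against CD11chiMϕ in Sham (2 members called), 1 member was called with total library size, 1 without a filter, 1 with the replicate block, 5 by DESeq2, 6 without the Sham libraries of replicate 3 (added after seeing the data) and 1 to 6 with 1 library left out. For CD11chiMϕ against CD11cloMϕ in Sham (3 called) there were 5 with the replicate block, 6 without those libraries and 0 to 4 with 1 library left out. For KRM against CD11chiMϕ in RAS (2 called) there were 1 in 1 fit over all 6 groups, 0 with the replicate block, 6 by DESeq2, 0 by limma and 0 to 5 with 1 library left out. With 1 library left out there were 6 to 7 for KRM against CD11cloMϕ in Sham, 0 to 6 in RAS, and 1 to 4 for CD11chiMϕ against CD11cloMϕ in RAS. For RAS against Sham, CD11chiMϕ (0 called) had 1 by DESeq2 and 0 to 2 with 1 library left out, CD11cloMϕ had 0 throughout, and KRM (3 called) had 0 with the replicate block, 5 by DESeq2, 5 by limma and 0 to 7. The interactions (0 called) had 1 by DESeq2 for KRM against CD11chiMϕ, with 0 to 2 with 1 library left out, and 1 by DESeq2 for KRM against CD11cloMϕ. limma was not run for the interactions.

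Timp3 turned in direction with the libraries rich in tubule markers. For KRM against CD11chiMϕ in Sham it was 0.059 without the Sham libraries of replicate 3 and from -4.00 to 1.39 with 1 library left out. For KRM against CD11cloMϕ it was 3.18e-05 with the replicate block, 0.60 without those libraries and from -2.33 to 1.91 with 1 library left out. For CD11chiMϕ against CD11cloMϕ it ran from -2.42 to 4.69, for RAS against Sham from -3.85 to 0.73 in CD11chiMϕ and from -1.79 to 1.84 in CD11cloMϕ, and for the interaction of CD11chiMϕ and CD11cloMϕ it ran from -5.03 to 1.84, the highest without CD11chiMϕ Sham replicate 3. Mmp8 ran from -3.92 to 0.092 for RAS against Sham in CD11chiMϕ and from -5.54 to 0.45 for the interaction of KRM and CD11chiMϕ.

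Calls over all genes moved by more than 1.5 times as follows. KRM against CD11chiMϕ in Sham went from 635 to 395 without a filter, 89 blocked, 1811 in DESeq2, 391 in limma and 1493 without the Sham libraries of replicate 3. KRM against CD11cloMϕ in Sham went from 5178 to 3447 in 1 fit over all groups. CD11chiMϕ against CD11cloMϕ in Sham went from 184 to 113 with total library size, 95 without a filter, 818 in 1 fit, 595 blocked, 1213 in DESeq2, 108 in limma and 1897 without those libraries. In RAS, KRM against CD11chiMϕ went from 1221 to 2138 in 1 fit, 101 blocked, 2753 in DESeq2 and 570 in limma, KRM against CD11cloMϕ from 1208 to 1840 in 1 fit, 3220 in DESeq2 and 732 in limma, and CD11chiMϕ against CD11cloMϕ from 1018 to 1729 in 1 fit and 2054 in DESeq2. RAS against Sham went from 0 to 5 in 1 fit and 188 in DESeq2 for CD11chiMϕ, from 0 to 107 in DESeq2 for CD11cloMϕ, and from 1247 to 42 blocked, 3166 in DESeq2 and 2593 in limma for KRM. The interactions went from 0 to 1 without a filter, 16 in 1 fit and 1221 in DESeq2 for KRM against CD11chiMϕ, from 34 to 59 with median-of-ratios factors, 77 with total library size, 74 without a filter, 58 in 1 fit, 2 blocked and 1419 in DESeq2 for KRM against CD11cloMϕ, and from 0 to 15 in DESeq2 for the other. With 1 library left out, calls over all genes ran from 155 to 1717, 4007 to 5940 and 0 to 704 for KRM against CD11chiMϕ, KRM against CD11cloMϕ and CD11chiMϕ against CD11cloMϕ in Sham, and from 14 to 2788, 0 to 3239 and 256 to 2169 in RAS. For RAS against Sham they ran from 0 to 39 in CD11chiMϕ and 28 to 7070 in KRM and stayed at 0 in CD11cloMϕ, and for the interactions from 0 to 1097, 0 to 2357 and 0 to 0. Scaling by total library size moved the median log2 difference of all genes from 0.03 to 0.27 for KRM against CD11chiMϕ in RAS, from 0.06 to 0.27 for KRM against CD11cloMϕ in RAS and from 0.09 to 0.26 for the interaction of KRM and CD11chiMϕ.

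Outside the Sham population comparisons the lowest correlation of libraries with the same replicate number was between -0.196 and 0.0757, below the threshold of 0.1. Mmp19 had 3 to 14 counts in each KRM library, and its difference between RAS and Sham was 0.47 (adjusted p = 0.561) without KRM RAS replicate 1, where edgeR could test it.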
